A study of Homo sapiens with 28 samples.

Results

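Genes of respiratory complex I were followed by 1 rule, a symbol that begins with NDUF, in a guide RNA screen and in an RNA-seq experiment. The rule found 47 of 19050 genes in the screen, with 4 to 6 guides each and 266 guides in all, and 51 of 25807 symbols in the RNA table, 47 of them in both tables. All samples were U-2 OS, a human osteosarcoma line grown in high-glucose medium. The screen groups, with 3 libraries each, were a p53 knockout derivative (KO) after 96 h in 5 µM etoposide, after 96 h in DMSO and at the start (T0), and cells with wild-type p53 (WT) at the same 3 points and the cells carried a pooled library of guide RNAs. Etoposide traps topoisomerase II on cut DNA, and p53 is a transcription factor of the DNA damage response. The RNA groups, with 2 libraries each, were p53 WT recipient cells after 8 h in medium conditioned by p53 KO or p53 WT cells that had received 31.6 µM etoposide, in medium conditioned by KO or WT cells given DMSO, and at T0. The sources used here do not say whether the p53 KO derivative is 1 clone, nor whether the libraries within a group were grown as separate cultures, and p-values therefore measure only the spread between these libraries.

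Complex I (NADH:ubiquinone oxidoreductase) takes electrons from NADH at the tip of a peripheral arm, passes them along iron-sulfur clusters to ubiquinone and pumps protons through a membrane arm. The peripheral arm holds a module that oxidises NADH (N module) and a module that reduces ubiquinone (Q module), each built on conserved core subunits. The remaining core subunits lie in the membrane arm and are encoded by mitochondrial DNA, so no nuclear guide or NDUF symbol covers them. Accessory subunits surround the core, those named NDUFB lie mainly in the distal membrane arm, and NDUFAF proteins are assembly factors that leave the finished enzyme. The name does not always fit the protein: NDUFA4 is now placed in complex IV, NDUFA4L2 is its hypoxia-inducible paralog, and NDUFC2-KCTD14 is a read-through of neighbouring genes. These 3 met the rule and are given apart from the subunits, and an assembly factor listed under an older symbol without NDUF was not included.

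The screen libraries held 30.4 to 48.2 M counts, with a median guide between 246 and 395 counts, and the RNA libraries 16.8 to 20.3 M. KO etoposide libraries A and B each held a guide at a very high count (315383 counts, 0.84% of library A, and 145852 counts, 0.479% of library B). The next highest were in KO DMSO C (60727 counts, 0.148%) and KO T0 C (27542 counts, 0.0653%). None of them was against an NDUF gene, whose guides reached at most 1136 counts. As a check of the drug, guides against TOP2A, the target of etoposide, rose by 0.58 ± 0.06 (log2, SE, edgeR adjusted p = 8.09e-13) in KO cells and by 0.32 ± 0.06 (adjusted p = 0.000188) in WT cells relative to DMSO. Relative to T0, etoposide gave 0.44 ± 0.06 in KO cells (adjusted p = 4.03e-07) but 0.03 ± 0.06 in WT cells (adjusted p = 0.945). In WT cells the same guides changed by -0.30 ± 0.06 from T0 to DMSO (adjusted p = 0.000334), so the WT rise is one over a lowered DMSO group. In the RNA, the p53 target CDKN1A stood at 1390 and 1460 CPM (counts scaled to a common library total) in KO etoposide media and 1240 and 1220 CPM in WT etoposide media, against 314 and 245 CPM in KO DMSO media and 293 and 319 CPM in WT DMSO media. The bone markers RUNX2 (10.5 to 55.8 CPM) and ALPL (20.9 to 81.6 CPM) were detected in all 10 RNA libraries.

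The screen measured how common the cells carrying a guide were, so a loss of guides over 96 h marks slower accumulation of cells that lack the gene. Counts were summed over the guides of a gene, scaled by TMM and tested by edgeR's quasi-likelihood method over 19044 genes, with Benjamini-Hochberg adjustment and a threshold of 0.05, and levels are in CPM.

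The widest change of the NDUF guides was in p53 KO cells, where the guides of 16 of 47 genes were more common after 96 h in etoposide than after 96 h in DMSO, none were less common, and 31 did not pass the test. Over all genes 3.05% were called higher and 1.18% lower in that comparison. The median of the 47 members was 0.0887 on the log2 scale, against -0.00323 for all genes, and 40 of 47 members were above 0. All etoposide libraries lay above all DMSO libraries for 22 of 47 members and 9.92% of all genes. They lay below for 0 of 47 members and 8.43% of all genes. Calls rest on the same libraries, so a lack of overlap in a called gene adds little to its call. The called genes included 6 of 11 NDUFB subunits, 3 of 7 assembly factors, 3 of 13 NDUFA subunits, and NDUFV2, NDUFS5 and NDUFC1.

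NDUFB8, an accessory subunit of the distal membrane arm often used as a marker of assembled complex I, gave the largest change of the 47. Its guides summed to 53, 54.9 and 51.6 CPM in KO etoposide libraries A, B and C, against 42.4, 43.4 and 39.4 CPM in KO DMSO libraries. Every etoposide library lay above every DMSO library, and the change was 0.35 ± 0.05 (log2, SE; 1.27-fold; edgeR adjusted p = 1.23e-06). At KO T0 the same guides stood at 48.6, 44.3 and 44.7 CPM, below all 3 etoposide libraries and above all 3 DMSO libraries. In WT cells NDUFB8 guides stood at 50.4, 53.8 and 51.0 CPM in etoposide and 51.8, 48.3 and 49.0 CPM in DMSO, and these libraries overlapped.

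NDUFB2, another small subunit of the distal arm, had 48.0, 54.2 and 47.1 CPM in KO etoposide against 37.6, 43.9 and 39.1 CPM in KO DMSO (0.31 ± 0.06, adjusted p = 0.000185), with no overlap. NDUFB9 (0.21 ± 0.06, adjusted p = 0.0155) and NDUFB6 (0.18 ± 0.05, adjusted p = 0.0169) also rose without overlap. NDUFB10 (0.20 ± 0.06, adjusted p = 0.0432) was called although its lowest etoposide library, 41.5 CPM, lay below the highest DMSO library, 41.7 CPM. NDUFB11, an X-linked subunit, rose by 0.16 ± 0.05 (adjusted p = 0.0482). The remaining 5 NDUFB genes ranged from 0.04 for NDUFB7 to 0.19 for NDUFB4 and did not pass the test. All 11 NDUFB genes had a positive change in KO cells, with a median of 0.178.

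Among assembly factors, NDUFAF5, a hydroxylase that modifies the Q-module subunit NDUFS7, had 30.9, 32.0 and 30.5 CPM in KO etoposide against 25.5, 24.4 and 25.1 CPM in KO DMSO (0.31 ± 0.07, adjusted p = 0.0018). NDUFAF3, which acts early in Q-module assembly, had 37.6, 37.8 and 35.6 CPM against 30.6, 30.5 and 29.7 CPM (0.29 ± 0.06, adjusted p = 0.00173). NDUFAF7, a mitochondrial methyltransferase, rose by 0.25 ± 0.06 (adjusted p = 0.00414). Etoposide and DMSO libraries did not overlap for these 3 genes. The other 4 assembly factors ranged from -0.08 for NDUFAF2 to 0.13 for NDUFAF4 and did not pass the test.

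Of the core subunits in KO cells, NDUFV2, an iron-sulfur subunit of the N module, had 44.4, 44.3 and 48.4 CPM in etoposide against 38.9, 43.3 and 36.4 CPM in DMSO (0.21 ± 0.06, adjusted p = 0.0264). The etoposide and DMSO libraries did not overlap for NDUFV2. NDUFS8 (0.17, adjusted p = 0.0577), which carries iron-sulfur clusters, and NDUFV1 (0.13, adjusted p = 0.0875), which binds NADH, did not pass the test. NDUFS3 (0.09), NDUFS7 (0.07) and NDUFS1 (0.01) showed smaller differences and did not pass it either.

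Among the other accessory subunits in KO cells, NDUFA6 (0.25 ± 0.06, adjusted p = 0.00253) and NDUFAB1 (0.22 ± 0.06, adjusted p = 0.0101) rose. NDUFAB1 is the mitochondrial acyl carrier protein, needed also for lipoic acid and iron-sulfur cluster synthesis, and NDUFA6 is a LYR-motif subunit that binds it. NDUFA3 (0.19 ± 0.05, adjusted p = 0.0129), NDUFC1 (0.19 ± 0.05, adjusted p = 0.0129) and NDUFS5 (0.23 ± 0.05, adjusted p = 0.0014) also rose. The 3 members that are not complex I subunits gave 0.01 for NDUFA4, -0.04 for NDUFA4L2 and 0.04 for NDUFC2-KCTD14 in KO cells, and none passed the test.

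In p53 WT cells, 3 of 47 genes rose with etoposide relative to DMSO, none fell and 44 did not pass the test, against 1.91% called higher and 0.294% called lower over all genes. NDUFS5 and NDUFV2 were among them, and all 3 were also called in KO cells. NDUFS5, an intermembrane-space subunit of the membrane arm, had 62.2, 56.3 and 58.5 CPM in WT etoposide libraries against 49.1, 45.0 and 48.9 CPM in WT DMSO libraries (0.30 ± 0.05, adjusted p = 1.92e-05). NDUFV2 had 44.5, 42.6 and 48.4 CPM in WT etoposide against 40.7, 38.2 and 38.3 CPM in WT DMSO (0.21 ± 0.06, adjusted p = 0.0362). Libraries of the 2 groups did not overlap for any of the 3, and the calls rest on these same libraries. Etoposide lay above DMSO without overlap for 11 of 47 members and 9.48% of all genes. It lay below for 1 of 47 members and 7.15% of all genes. Without WT DMSO C, 1 of the 3, NDUFS5, remained called, and NDUFV2 did not pass (adjusted p = 0.119). NDUFV2 also lost its call without WT DMSO B, WT etoposide A or WT etoposide C, and with the compared libraries alone (adjusted p = 0.054). The median of the members in WT cells was 0.0563 and 38 of 47 were above 0, against -0.000148 for all genes.

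**Figure D1:**
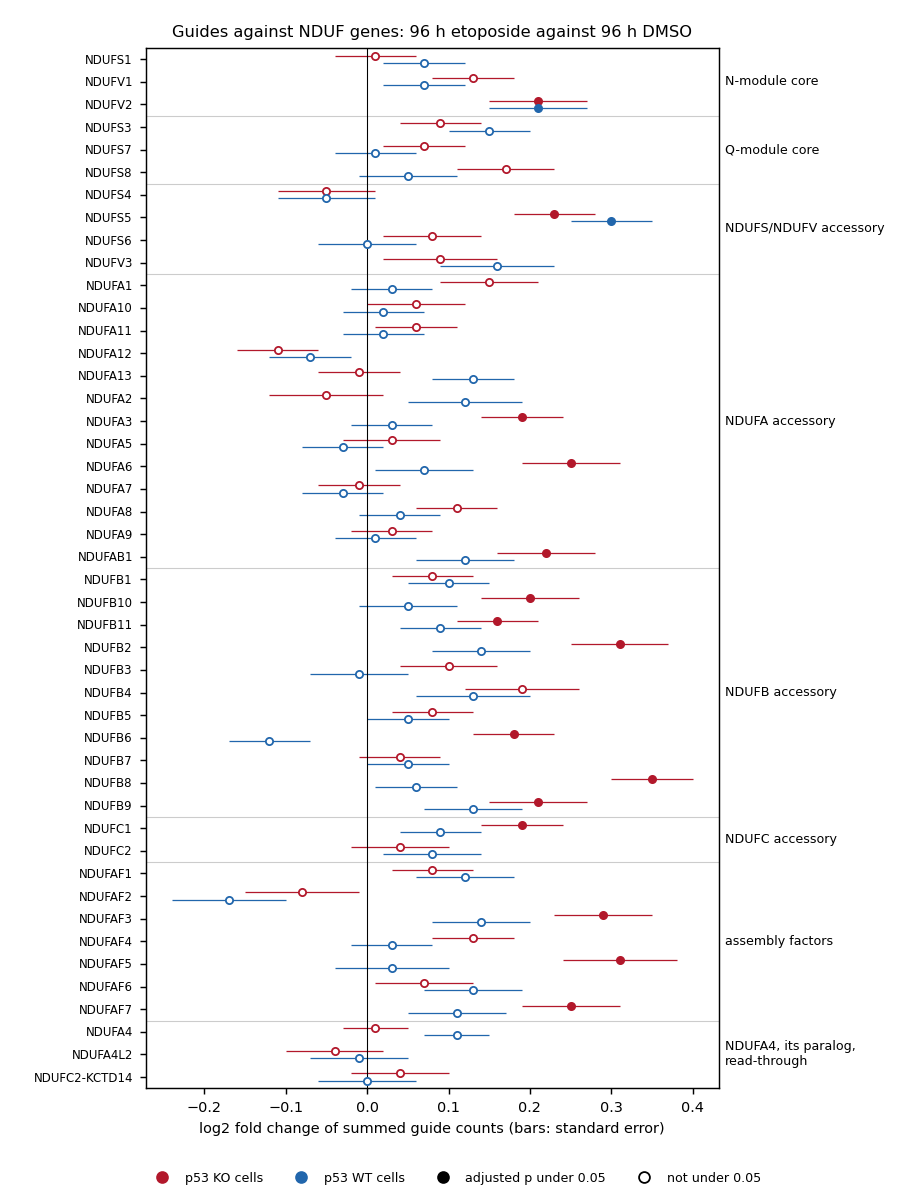
Log2 fold change of the summed guide counts of NDUF genes (x axis, with the standard error) after 96 h in etoposide against 96 h in DMSO, in p53 KO cells (red) and p53 WT cells (blue), with genes down the page by role and filled points for an adjusted p under 0.05. The filled red points include 6 of the 11 NDUFB subunits, and filled blue points mark NDUFV2 and NDUFS5.

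The count of 16 against 3 does not by itself show that the genotypes differed, so the difference between their etoposide changes was tested for each gene. No member passed that test in edgeR, 5 of 47 had an unadjusted p under 0.05, DESeq2 called 2 (NDUFB6 and NDUFB8) and limma on the mean over guides called 0. With the replicate letter as a block edgeR called 1, NDUFB6 (adjusted p = 0.0479). Over all 19044 genes edgeR called 0.0525%, and 1950 had an unadjusted p under 0.05. DESeq2 called 42 of all genes higher and 57 lower. With the block edgeR called 8 of all genes higher and 9 lower. The nearest was NDUFB6 (0.30 ± 0.07, adjusted p = 0.0522), whose guides had 64.1, 62.8 and 66.2 CPM in KO etoposide against 58.8, 55.3 and 56.5 CPM in KO DMSO, and 57.2, 59.8 and 56 CPM in WT etoposide against 66, 63 and 58.7 CPM in WT DMSO. In KO cells all etoposide libraries lay above all DMSO libraries, while in WT cells etoposide library B lay above DMSO library C and the others lay below the DMSO group. NDUFB8 followed (0.29 ± 0.08, adjusted p = 0.116), then NDUFAF5 (0.28 ± 0.10, adjusted p = 0.272). The count was 1 without KO DMSO A or without WT DMSO C.

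The count in KO cells depended on libraries. NDUFB8, NDUFB2, NDUFS5, NDUFAF3, NDUFAF5 and NDUFA6 kept their calls whichever of the 6 libraries was left out. NDUFC1 lost its call without KO etoposide A (adjusted p = 0.394) and NDUFA3 without KO etoposide B (adjusted p = 0.235). NDUFAB1 (adjusted p = 0.143) lost it without KO etoposide A and NDUFAF7 (adjusted p = 0.0909) without KO etoposide C. NDUFAF7 also lost it without KO DMSO C, and NDUFAB1 without KO DMSO A. NDUFB9, NDUFB6, NDUFV2, NDUFB10 and NDUFB11 lost it without any of 3 to 5 libraries, KO DMSO C among them each time. Other settings also ended some of these calls: DESeq2 those of NDUFB9 (adjusted p = 0.137) and NDUFB10 (adjusted p = 0.163), limma on the mean over guides those of NDUFB6 (adjusted p = 0.073), NDUFB9 (adjusted p = 0.058) and NDUFV2 (adjusted p = 0.586), and a fit of the compared libraries alone those of NDUFV2 (adjusted p = 0.0632), NDUFB10 (adjusted p = 0.0727) and NDUFB11 (adjusted p = 0.0968). NDUFB11 also lost its call when guides with a mean under 100 counts were left out. The count of 16 was 9 without KO DMSO C, and 4 when KO etoposide C stood alone for its group, without libraries A and B that hold the very abundant guides; the lone library is then assumed to vary like the other groups, and this setting was chosen after the data were seen. NDUFB8, NDUFS5, NDUFA6 and NDUFAF7 were the 4 still called, and the median of the members was then 0.111.

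Growth in the absence of etoposide was read from the DMSO libraries at 96 h relative to T0, and here the guides of few NDUF genes were lost. In KO cells 3 of 47 fell and none rose, against 3.09% lower and 0.42% higher over all genes. In WT cells 2 of 47 fell and none rose, against 5.4% lower and 1.13% higher over all genes. Counts of 3 and 2 in 47 are of the order of those background shares. The medians were -0.0393 in KO cells and -0.0402 in WT cells, with 34 and 35 of 47 members below 0, against 0.00356 and 0.00485 for all genes; they were -0.0237 without KO DMSO C and -0.0192 without WT DMSO C.

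In KO cells NDUFAB1 guides had 43.4, 44.5 and 46.1 CPM in DMSO against 54.1, 52.2 and 50.9 CPM at T0, a change of -0.23 ± 0.06 (adjusted p = 0.00424). NDUFB2 guides had 37.6, 43.9 and 39.1 CPM in DMSO against 46.3, 46.5 and 46.7 CPM at T0 (-0.21 ± 0.06, adjusted p = 0.0236). NDUFS8 guides had 42.4, 43.1 and 41.0 CPM against 51.4, 44.1 and 48.4 CPM (-0.18 ± 0.06, adjusted p = 0.044). All 3 lay below T0 in every library, which held for 14 of 47 members and 10.2% of all genes. DMSO lay above T0 in every library for 2 of 47 members and 7.98% of all genes. With 1 library left out at a time the count of 3 was 1 to 2, and NDUFAB1 alone kept its call each time. It was 1 without KO DMSO C, KO T0 A or KO T0 C. NDUFB2 lost its call without each of the 6 libraries but KO DMSO B, and NDUFS8 without each but KO T0 B. NDUFS8 also lost it under limma (adjusted p = 0.0746) and with the compared libraries alone (adjusted p = 0.069).

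In WT cells NDUFS5 guides had 49.1, 45.0 and 48.9 CPM in DMSO against 57.1, 56.2 and 58.2 CPM at T0 (-0.26 ± 0.05, adjusted p = 0.000136). NDUFV1 (-0.12 ± 0.05, adjusted p = 0.098) and NDUFV2 (-0.16 ± 0.06, adjusted p = 0.106) came next without passing the test. WT DMSO C stood low for the family: the 266 guides summed to 2368, 2340 and 2226 CPM in WT DMSO libraries A, B and C, and without library C the count of 2 was 1. It was also 1 without WT T0 B, and 4 without WT DMSO B, while NDUFS5 kept its call in each of these. No member passed the test of the difference in growth change between the genotypes in edgeR, DESeq2 or limma. Over all genes edgeR called 0.00525%. An unadjusted p under 0.05 was found for 7 of 47 members and for 1462 of all 19044 genes. NDUFB6 was the nearest member (-0.19 ± 0.07, edgeR adjusted p = 0.448).

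The scale mattered for growth. Libraries scaled to the 999 non-targeting guides put the median of all genes at -0.0453 in KO and -0.061 in WT cells. The growth counts then became 10 and 13 members lower. Over all 19044 genes, 1570 were lower in KO and 3035 in WT cells on that scale, against 588 and 1029 by TMM. Of all genes called for growth, the share that was higher was 12% in KO and 17.3% in WT cells by TMM, and 0.821% and 0.655% on the non-targeting scale. With that scale the etoposide counts were 20 members in KO and 6 in WT cells, all higher, beside 835 and 974 of all 19044 genes called higher. The share of higher genes among all those called for etoposide was 88.6% in KO and 98.3% in WT cells, where TMM gave 72.1% and 86.6%. The median over the members kept its sign in these 4 comparisons.

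**Figure D2:**
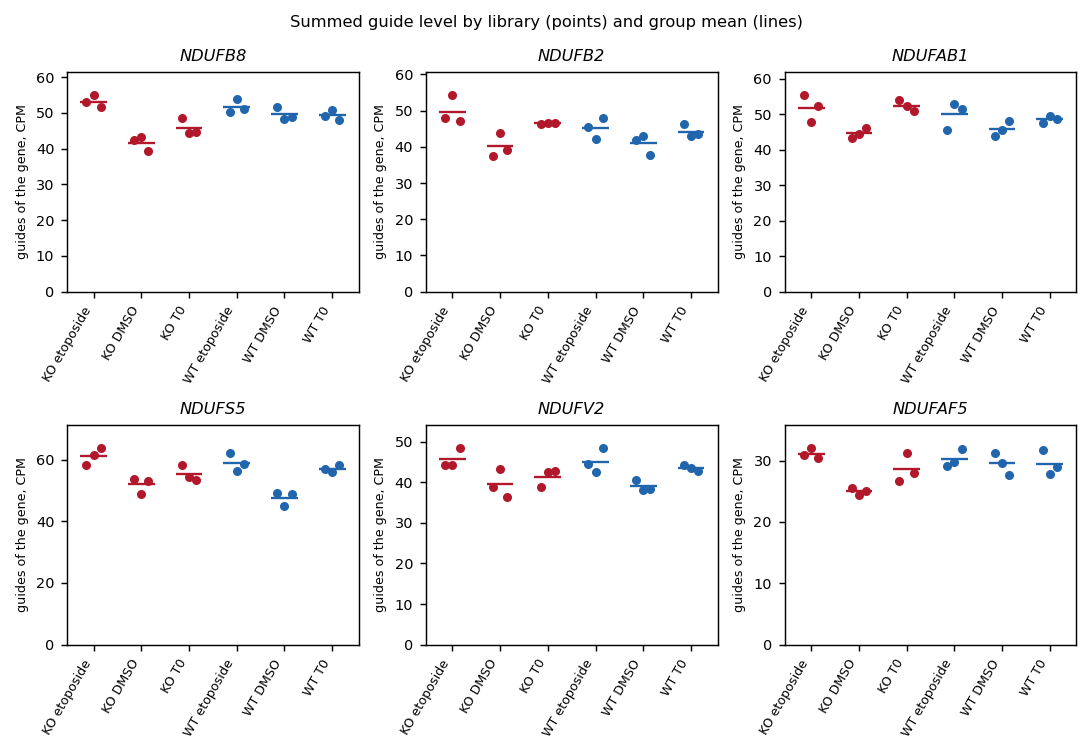
Summed guide level in CPM (y axis, from 0) of 6 NDUF genes in each screen library (points) with the group mean (line), for p53 KO (red) and p53 WT (blue) cells in etoposide, in DMSO and at T0. NDUFB8 and NDUFB2 were lower in KO DMSO than in KO etoposide without overlap, and NDUFS5 showed the same in both genotypes.

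Etoposide and growth share the DMSO libraries, so a low DMSO group lowers the growth change and raises the etoposide change of the same gene. The levels are therefore given side by side. Over the 266 guides the sum was 2469, 2489 and 2465 CPM in KO etoposide, 2303, 2306 and 2264 CPM in KO DMSO and 2359, 2359 and 2361 CPM at KO T0. In WT cells it was 2416, 2431 and 2404 CPM in etoposide, 2368, 2340 and 2226 CPM in DMSO and 2397, 2372 and 2397 CPM at T0. In both genotypes the etoposide libraries were the highest and the DMSO libraries the lowest for this sum, with no overlap between groups. By group means, the DMSO group was the lowest of the 3 for 32 of 47 genes in KO and 30 of 47 in WT cells. The etoposide group was the highest for 35 of 47 in KO and 33 of 47 in WT cells. These counts share the DMSO libraries, and this order was not counted over all genes.

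Etoposide was also set against T0, which leaves the DMSO libraries out. In KO cells the median of the members was 0.0731, against 0.00118 for all genes, with 39 of 47 above 0 and 8 below. An unadjusted p under 0.05 was found for 9 of the 47 members and for 2022 of all 19044 genes. After adjustment 1 of 47 was higher and none lower, against 0.378% higher and 0.746% lower over all genes. It was NDUFB8 (0.21 ± 0.05, adjusted p = 0.0203), and that call ended under limma on the mean over guides (adjusted p = 0.354), under the non-targeting scale (adjusted p = 0.0518), and without KO etoposide A, KO etoposide B, KO T0 B or KO T0 C. The share of higher genes among all those called was 33.6% by TMM and 9.94% on the non-targeting scale. NDUFB11 (0.17 ± 0.05, adjusted p = 0.0749) and NDUFAF4 (0.15 ± 0.05, adjusted p = 0.109), an assembly factor, came next. In WT cells no member was called by edgeR, DESeq2 or limma and none had an unadjusted p under 0.05, against 0.856% of all genes called in either direction. The 3 with the lowest p were NDUFAF6 (0.10 ± 0.06, adjusted p = 0.638), NDUFS7 (-0.09 ± 0.05, adjusted p = 0.642) and NDUFAF2 (-0.12 ± 0.07, adjusted p = 0.656).

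Guides of a gene differed among themselves. Single guides were tested over all 109367 guides, and in KO cells 11 of 266 NDUF guides were higher with etoposide and none lower, against 0.632% higher and 0.209% lower over all guides. NDUFB8 had 2 of these, at 0.74 and 0.68, while its 6 guides ranged from -0.06 to 0.74 with 5 above 0. The mean was 0.36 over its 3 guides whose identifiers carry an A and 0.28 over the 3 that carry a B. All 6 guides were above 0 for NDUFB2 (0.05 to 0.54), NDUFAF3 (0.13 to 0.59), NDUFA6 (0.11 to 0.42) and NDUFAF7 (0.07 to 0.52), and all 5 for NDUFAF5 (0.21 to 0.44). NDUFV2 differed, with 3 of 5 guides above 0 and a mean of 0.07, where its summed count gave 0.21. With each guide given equal weight in limma, NDUFV2 did not pass the test in KO (0.09, adjusted p = 0.586) or WT cells (0.13, adjusted p = 0.466).

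In WT cells with etoposide, 1 of 266 guides was higher (a guide of NDUFB5, 0.77) and none lower, against 0.341% and 0.0311% over all guides. For growth, 1 was higher and none lower in KO cells, against 0.0539% and 0.555%, and 3 were lower and none higher in WT cells, against 1.37% and 0.168%. The 3 lower ones belonged to NDUFAB1 (-0.67), NDUFA10 (-0.47) and NDUFS3 (-0.37), and the higher one to NDUFA13 (0.58). The 6 guides of NDUFS5 were all above 0 with etoposide in WT cells (0.06 to 0.48) and all below 0 for growth (-0.45 to -0.02), over shared DMSO libraries.

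**Figure D3:**
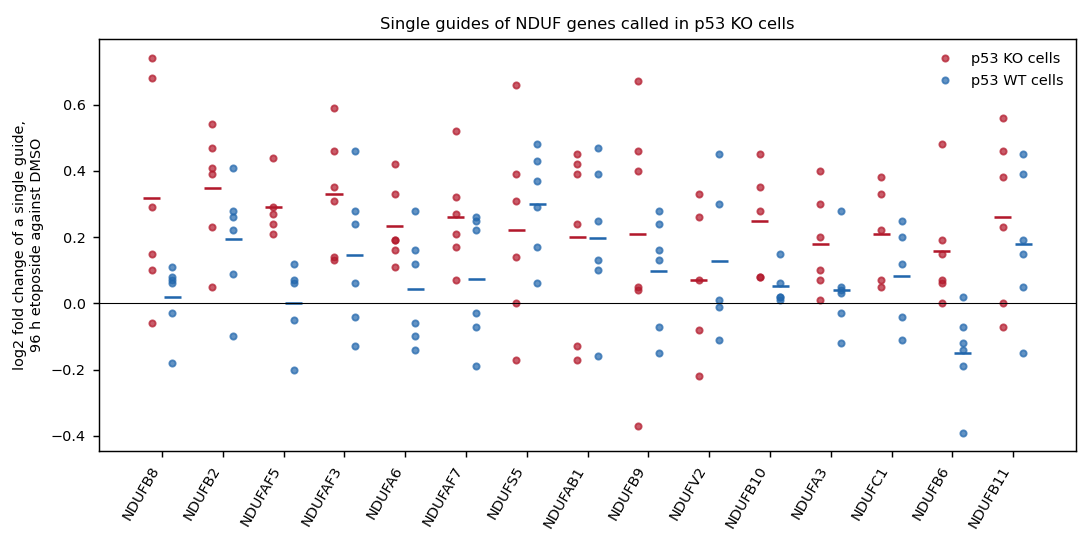
Log2 fold change of single guides (points, y axis) and their mean (lines) after 96 h in etoposide against DMSO, in p53 KO (red) and p53 WT (blue) cells, for NDUF genes called in KO cells, from the largest change of the sum at the left. NDUFB8 guides in KO cells run from -0.06 to 0.74, and all 6 guides of NDUFB2 lie above 0 in KO cells.

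The starting pools differed at few NDUF genes. At T0, 1 of 47 was higher and 2 lower in KO than in WT cells, against 2.4% higher and 2.14% lower over all genes. Counts of 1 and 2 in 47 are of the order of those shares. NDUFA10 guides, against an accessory subunit, had 39.1, 41.0 and 42.5 CPM in KO and 49.8, 50.4 and 51.2 CPM in WT cells (-0.30 ± 0.05, adjusted p = 0.000454). NDUFB1 guides had 62.1, 61.5 and 63.4 CPM in KO and 73.5, 70.5 and 71.1 CPM in WT cells (-0.20 ± 0.05, adjusted p = 0.00432). NDUFS3 guides had 53.2, 53.3 and 56.6 CPM in KO and 46.4, 47.8 and 47.1 CPM in WT cells (0.21 ± 0.05, adjusted p = 0.011). NDUFS3 lost its call without KO T0 C (adjusted p = 0.0858) or WT T0 A (adjusted p = 0.0558), and under limma (adjusted p = 0.0622). On the non-targeting scale 3 members were higher and 2 lower, beside 1959 higher and 155 lower of all 19044 genes. The share of higher genes among all those called was 92.7%, where TMM gave 52.9%. A difference in how the pools were made and a difference between the genotypes before T0 cannot be told apart here.

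Other genes of the electron transport chain were read from lists chosen with results of these data known. Over all genes 3.05% were called higher and 1.18% lower with etoposide in KO cells, and 1.91% and 0.294% in WT cells. For growth 3.09% were called lower and 0.42% higher in KO cells, and 5.4% and 1.13% in WT cells. Of all 19044 genes, an unadjusted p under 0.05 was found for 3251 and 2489 with etoposide in KO and WT cells. For growth in WT cells it was found for 3440. In KO cells with etoposide 8 of 29 complex IV genes rose and none fell (median 0.0905), 6 of 18 ATP synthase genes rose and none fell (0.142), 3 of 14 complex III genes rose (0.02) and 0 of 6 complex II genes were called by edgeR, 2 of them with an unadjusted p under 0.05 (0.0555). In WT cells the counts were 1 of 29, 6 of 18, 0 of 14 and 0 of 6, all higher, with medians of 0.0687, 0.115, 0.00743 and 0.0379; in edgeR 3 complex III and 1 complex II gene had an unadjusted p under 0.05. For growth 2 of 29 complex IV, 4 of 18 ATP synthase, 2 of 14 complex III and 1 of 6 complex II genes fell in KO cells, and 1, 7, 1 and 0 in WT cells, where 1 complex II gene had an unadjusted p under 0.05; none rose. Genes known to assemble complex I but not named NDUF gave 3 higher and 1 lower of 12 in KO cells, with a median of 0.0539, and 1 higher and none lower in WT cells, with a median of 0.03. AIFM1, which supports import of subunits into the intermembrane space, rose by 0.40 ± 0.05 (adjusted p = 2.64e-10) in KO and 0.33 ± 0.05 (adjusted p = 3.44e-07) in WT cells. FOXRED1, an assembly factor, rose by 0.22 ± 0.06 in KO cells (adjusted p = 0.0105) and TMEM126B, of the membrane-arm assembly complex, fell by 0.18 ± 0.05 (adjusted p = 0.0105). TIMMDC1, of the same complex, rose by 0.24 ± 0.07 (adjusted p = 0.0396). These changes are relative to DMSO, and the values are from edgeR. From T0 to DMSO AIFM1 guides changed by -0.23 in KO cells (adjusted p = 0.000546) and -0.30 in WT cells (adjusted p = 9.83e-07). With etoposide relative to T0 AIFM1 gave 0.17 in KO cells (adjusted p = 0.0518) and 0.03 in WT cells (adjusted p = 0.939). In KO cells FOXRED1 gave 0.07, TIMMDC1 0.02 and TMEM126B -0.05 relative to T0, and none of them passed the test.

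The RNA experiment asked what medium from etoposide-treated cells did to p53 WT recipients. Of 51 NDUF symbols 48 passed the filter on low counts; NDUFA4L2, with 0 to 11 counts in a library, the pseudogene NDUFAF4P1, with 0 to 4, and NDUFC2-KCTD14, with 0 to 1, did not. The 48 were 44 complex I subunits and assembly factors, NDUFA4 and 3 antisense transcripts. Tests ran over 15391 symbols. The strand setting of the counts is not given in the sources used here, so reads of NDUFV2, NDUFB2 and NDUFA6 cannot be told apart from those of their antisense partners; reads of NDUFC2 and NDUFAF4 may be shared with the read-through and the pseudogene. None of the 3 antisense transcripts passed the test in any comparison. In bulk RNA a share of responding cells and a level per cell cannot be told apart.

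At T0 the core subunit NDUFS8 had the highest level per transcript length of the 48, 305 RPKM (CPM per kilobase, by the length deposited with the counts), and NDUFA5 the lowest of the coding members, 2.08 RPKM. Most subunits lay between 10.1 and 175 RPKM. Apart from NDUFV3 (8.17 RPKM) and NDUFA5, the coding members under 10 RPKM at T0 were the assembly factors NDUFAF7, NDUFAF4, NDUFAF6, NDUFAF5 and NDUFAF1. Across the 45 genes in both assays, the level at T0 had a Spearman correlation of 0.18 with the KO etoposide change in the screen and of -0.17 with the WT growth change, a description over genes that share libraries.

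With medium from WT cells, 15 of 48 NDUF transcripts rose in etoposide medium relative to DMSO medium and none fell, while 33 did not pass the test. Over all symbols 16.1% rose and 18.5% fell. The median of the members was 0.183 on the log2 scale, against 0.0131 for all symbols, and 43 of 48 were above 0. The 15 were spread over the complex, with 5 of 13 NDUFA subunits, 4 of 11 NDUFB subunits, 3 of 4 accessory subunits named NDUFS or NDUFV, 1 of 7 core subunits, 1 of 7 assembly factors, and NDUFA4.

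With medium from KO cells, 3 of 48 rose and 4 fell with etoposide, against 18.8% and 18.4% over all symbols, so a smaller share of the members than of all symbols was called. The median was -0.0381, against -0.0112 for all symbols, and it ran from -0.0902 to 0.00747 when 1 library was left out. NDUFV3 and NDUFAF4 were called with both media.

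NDUFV3, an accessory subunit of the N module that exists in a short and a long form, had 35.2 and 37.5 CPM in KO etoposide medium against 23.2 and 26.8 CPM in KO DMSO medium (0.54 ± 0.09, adjusted p = 0.000166). It had 35.4 and 38.7 CPM in WT etoposide medium against 21.6 and 22.2 CPM in WT DMSO medium (0.76 ± 0.10; 1.69-fold; adjusted p = 5.06e-06). At T0 it stood at 17.2 and 17.6 CPM, the lowest of the 5 groups. Both calls held whichever library was left out. NDUFAF4, a factor of early assembly, had 10.2 and 12.7 CPM against 8.52 and 8.69 CPM with KO media (0.42 ± 0.14, adjusted p = 0.0269). With WT media it had 8.57 and 10.4 CPM against 6.78 and 7.33 CPM (0.42 ± 0.15, adjusted p = 0.0361).

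Of the genes called with WT media and not with KO media, NDUFS3, a Q-module core subunit, had 72.4 and 74.8 CPM in WT etoposide medium against 57.0 and 53.2 CPM in WT DMSO medium (0.42 ± 0.09, adjusted p = 0.000882). With KO media it had 61.3 and 72.2 CPM against 69.7 and 65.1 CPM (-0.01, adjusted p = 0.914), with overlap. NDUFA5, a subunit of the Q module, rose by 0.41 ± 0.11 with WT media (adjusted p = 0.00666) and gave 0.15 with KO media (adjusted p = 0.305). The others called with WT media were NDUFB6 (0.37), NDUFAB1 (0.30), NDUFB8 (0.28), NDUFA8 (0.28), NDUFB9 (0.26), NDUFS6 (0.26), NDUFB5 (0.26), NDUFA4 (0.24), NDUFA11 (0.24), NDUFA13 (0.22) and NDUFS5 (0.21), with adjusted p-values between 0.0108 and 0.0446. In all 15 the etoposide libraries lay above the DMSO libraries, which held for 32 of 48 members and for 34.7% of all symbols.

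The 4 that fell with KO media were NDUFB10, NDUFAF3, NDUFS7 and NDUFB7. NDUFB10, a subunit of the distal arm, had 72.8 and 73.0 CPM in KO etoposide medium against 96.1 and 101 CPM in KO DMSO medium (-0.44 ± 0.07, adjusted p = 0.000118). With WT media it had 83.3 and 89.6 CPM against 90.4 and 89.5 CPM (-0.06, adjusted p = 0.589), with overlap. NDUFAF3 gave -0.32 ± 0.09 (adjusted p = 0.0066), NDUFS7, which carries the last iron-sulfur cluster before ubiquinone, -0.33 ± 0.11 (adjusted p = 0.024), and NDUFB7 -0.24 ± 0.09 (adjusted p = 0.0473). NDUFAF1, an assembly factor of the membrane arm, rose by 0.57 ± 0.18 (adjusted p = 0.0169) with KO media and gave 0.47 ± 0.18 with WT media (adjusted p = 0.0503).

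**Figure D4:**
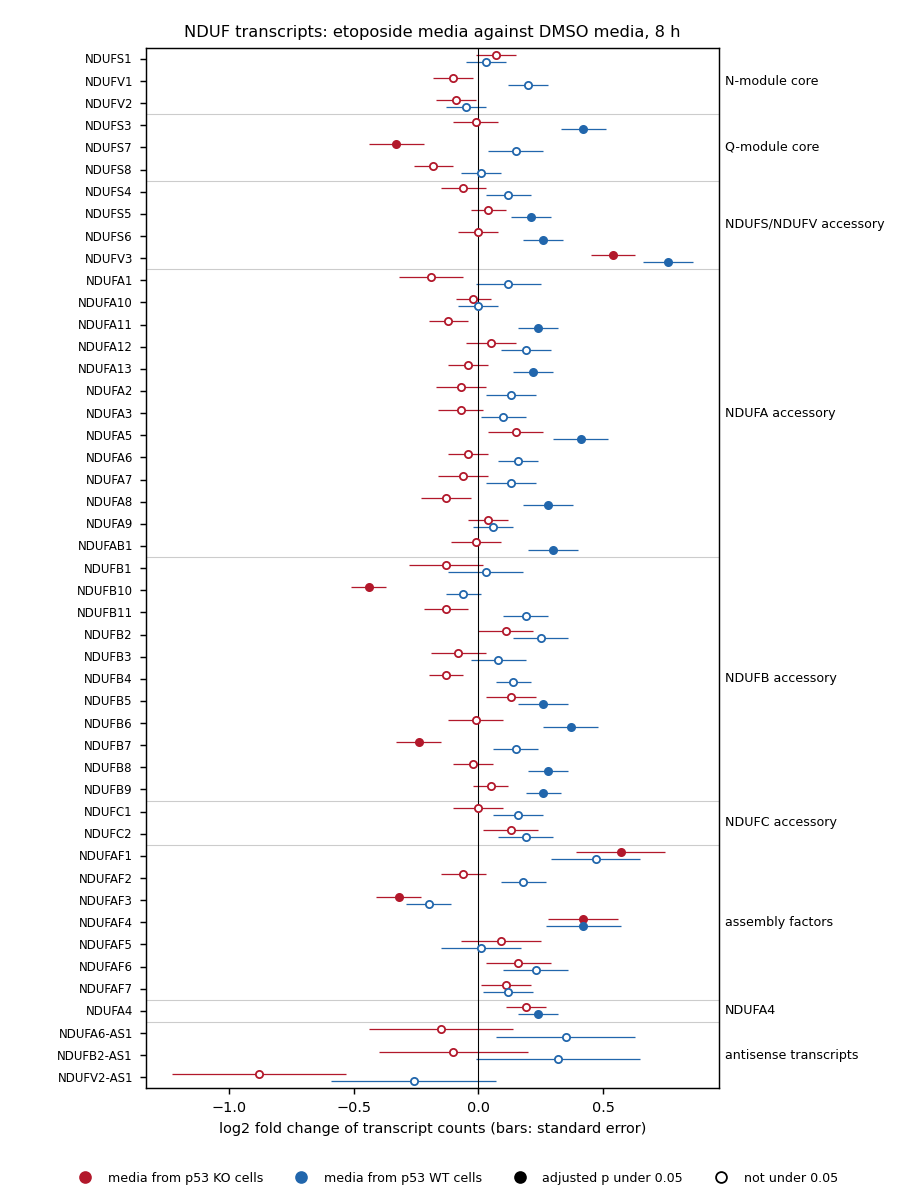
Log2 fold change of NDUF transcripts (x axis, with the standard error) in p53 WT recipients after 8 h in etoposide medium against DMSO medium, for media from p53 KO cells (red) and from p53 WT cells (blue), with filled points for an adjusted p under 0.05. The 15 filled blue points all lie above 0, while the 7 filled red points lie on both sides of it.

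Whether the change with etoposide differed between the media was tested directly. No member passed in edgeR, which called 2.12% of all symbols. An unadjusted p under 0.05 was found for 14 of 48 members and for 2918 of all 15391 symbols. DESeq2 called 2 members, beside 324 of all symbols higher and 144 lower. The median difference was -0.192, with 45 of 48 members below 0, against -0.00117 for all symbols. NDUFB10 (-0.38 ± 0.10, adjusted p = 0.0587), NDUFS3 (-0.43 ± 0.12, adjusted p = 0.0643) and NDUFA11 (-0.36 ± 0.11, adjusted p = 0.0981) came nearest. Leaving out 1 library leaves 1 in its group, so counts of calls are not compared there. With either KO DMSO library out, more members and more of all symbols were called. Without KO etoposide B a member was called, while fewer of all symbols were. The median difference ran from -0.282 without KO etoposide B to -0.178 without KO etoposide A.

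Both steps of that difference share libraries with it and are given as values. In DMSO media no member passed the test between KO and WT sources in edgeR or DESeq2. Over all symbols edgeR called 1.56%. An unadjusted p under 0.05 was found for 12 of 48 members and for 3041 of all 15391 symbols. The median of the members was 0.139. Without KO DMSO A, which left 1 library in its group, more members and more of all symbols were called, and the median was 0.153. NDUFS3 (0.29 ± 0.09, adjusted p = 0.0767), NDUFA13 (0.28 ± 0.08, adjusted p = 0.079) and NDUFB9 (0.23 ± 0.07, adjusted p = 0.0943) came nearest. In etoposide media 1 of 48 was lower with the KO source and none higher, against 5.57% lower and 8.5% higher over all symbols. It was NDUFB10 (-0.25 ± 0.07, adjusted p = 0.0333), followed by NDUFS7 (-0.25 ± 0.11, adjusted p = 0.141) and NDUFA6 (-0.16 ± 0.08, adjusted p = 0.177). The call of NDUFB10 ended when any of the 4 libraries was left out and with no filter on low counts (adjusted p = 0.0627). The authors' deposited table of KO against WT media lists NDUFB10 at -0.25 ± 0.09 (adjusted p = 0.0377) and no other NDUF symbol under 0.05 among 47. Its fold changes had a correlation across 13604 genes of 1, to 2 decimals, with those of the etoposide media here, and of 0.39 with those of the DMSO media.

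The summed level of the 48 transcripts was 2077 and 2242 CPM in KO etoposide medium, 2265 and 2298 CPM in WT etoposide medium, 2222 and 2263 CPM in KO DMSO medium, 2074 and 2041 CPM in WT DMSO medium, and 2312 and 2248 CPM at T0. WT DMSO medium was thus the low group, and library A of KO etoposide medium lay well below its library B. Without that library 4 members were called with KO media in place of 7, and the median of the members was 0.00747. NDUFB10 and NDUFV3 were the 2 of those 7 that held without any of the 4 libraries. NDUFAF3 was lost without KO etoposide A or KO DMSO A, NDUFS7 and NDUFB7 without KO etoposide A or KO DMSO B, NDUFAF4 without KO etoposide B or KO DMSO A, and NDUFAF1 without KO etoposide B. DESeq2 did not call NDUFAF1, NDUFAF4 and NDUFB7 with KO media (adjusted p between 0.0584 and 0.0777), and the compared libraries alone did not give NDUFS7, NDUFAF4 and NDUFB7 (adjusted p between 0.071 and 0.0993). With WT media, where 15 were called, leaving out any WT library left a lone one in its group. Fewer members and fewer of all symbols were then called. Without WT etoposide B or WT DMSO A, a smaller share of members than of all symbols was called higher. Without WT DMSO B or WT etoposide A, the share of members was the larger. The median of the members ran from 0.169 without WT DMSO B to 0.197 without WT etoposide B. NDUFV3 and NDUFS3 kept their calls whichever of these libraries was left out. NDUFA5 was lost only without WT DMSO A, and the other 12 were lost without at least 2 libraries each. DESeq2 did not call 6 of the 15, NDUFS5, NDUFAB1, NDUFA13, NDUFA8, NDUFAF4 and NDUFB5 (adjusted p between 0.0534 and 0.0967), and with no filter on low counts NDUFA13, NDUFB5 and NDUFS5 were not called.

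Culture for 8 h in DMSO medium from WT cells, relative to T0, changed 14 of 48 transcripts, 3 higher and 11 lower, against 17.8% higher and 17.6% lower over all symbols. The median of the members was -0.0947, against 0.0049 for all symbols, and it was -0.0491 without T0 A. NDUFA11, a membrane-arm subunit at the junction of the arms, had 47.7 and 42.1 CPM in WT DMSO medium against 102 and 99.6 CPM at T0 (-1.16 ± 0.08; 0.446-fold; adjusted p = 2.31e-09). It stayed between 46.9 and 54.1 CPM in the other 3 media, so all 8 libraries in conditioned medium lay below both T0 libraries. NDUFC2 (-0.55 ± 0.11), NDUFAF4 (-0.47 ± 0.15), NDUFB1 (-0.41 ± 0.15), NDUFB11 (-0.40 ± 0.09), NDUFA13 (-0.35 ± 0.08), NDUFA2 (-0.31 ± 0.10) and NDUFA4 (-0.29 ± 0.08) also fell, with adjusted p-values between 0.000504 and 0.0348.

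Core subunits of the Q module fell with them. NDUFS8 had 196 and 181 CPM in WT DMSO medium against 256 and 235 CPM at T0 (-0.38 ± 0.08, adjusted p = 0.000734) and NDUFS3 gave -0.23 ± 0.09 (adjusted p = 0.0473), while NDUFS7 (-0.27) did not pass the test. The 3 nuclear core subunits of the N module, NDUFV1 (0.03), NDUFV2 (0.01) and NDUFS1 (0.06), showed little difference and none was called by edgeR, at an unadjusted p under 0.05 or otherwise. NDUFAF2, a paralog of the subunit NDUFA12 that acts late in assembly, had the largest rise, with 27.1 and 25.6 CPM against 17.6 and 18.2 CPM (0.56 ± 0.09, adjusted p = 0.000132). NDUFV3 (0.33 ± 0.10, adjusted p = 0.0158) and NDUFB10 (0.25 ± 0.07, adjusted p = 0.0119) also rose. The count of 14 was 6 without WT DMSO A, 7 without T0 A or T0 B and 9 without WT DMSO B. NDUFA11, NDUFAF2, NDUFC2, NDUFS8, NDUFB11 and NDUFA13 held in each of these, while NDUFV3, NDUFAF4 and NDUFS3 were lost in each. NDUFA2 and NDUFB1 were lost in all but the one without WT DMSO B, NDUFB10 in all but the one without T0 A, and NDUFA4 without T0 A or WT DMSO A. DESeq2 did not call NDUFA2, NDUFS3 or NDUFB1 (adjusted p between 0.0675 and 0.0914). This comparison shares the WT DMSO libraries with that of etoposide and DMSO media from WT cells. T0 and WT DMSO medium differ in time in culture as well as in medium, which cannot be told apart.

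**Figure D5:**
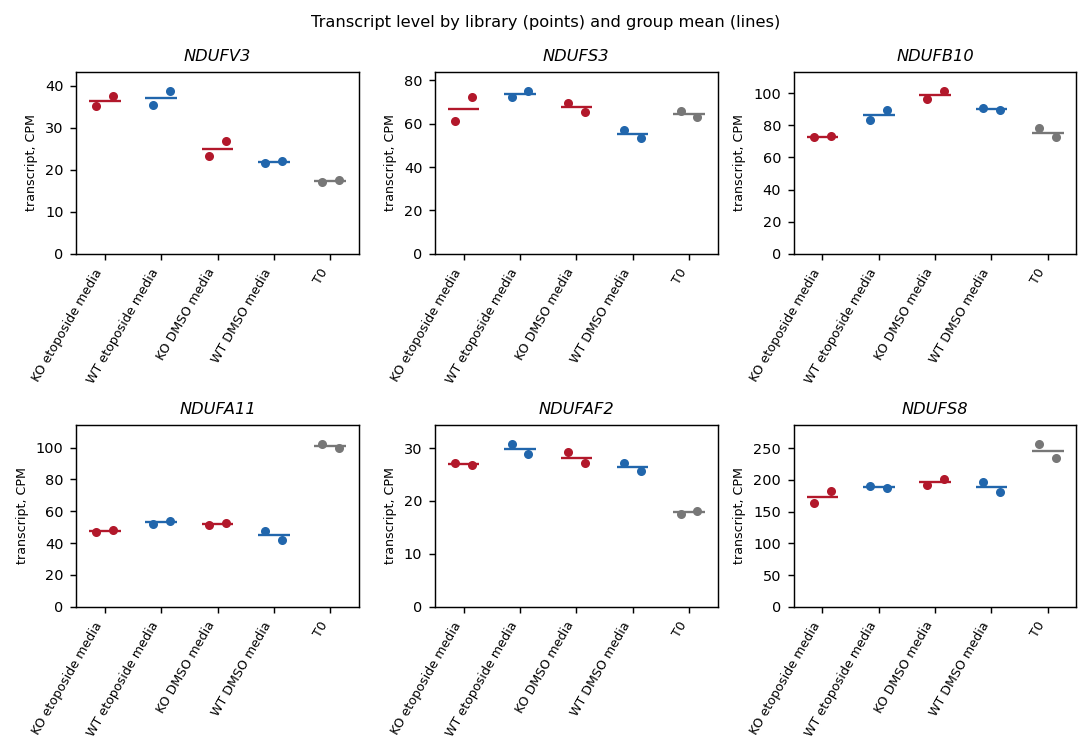
Transcript level in CPM (y axis, from 0) of 6 NDUF genes in each RNA library (points) with the group mean (line), in p53 WT recipients of etoposide and DMSO media from p53 KO (red) and p53 WT (blue) cells and at T0 (grey). NDUFA11 at T0 lies above all 8 libraries in conditioned medium, and NDUFV3 is highest in the 4 etoposide-medium libraries.

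The other chain genes were counted in the RNA as well, beside 18.8% higher and 18.4% lower over all symbols with KO media and 16.1% and 18.5% with WT media. With KO media 1 of 30 complex IV genes rose and 2 fell, 3 of 18 ATP synthase genes fell, 1 of 15 complex III genes fell, 1 of 6 complex II genes rose, and 1 of the 12 other complex I genes rose and 1 fell. With WT media 5 of 30, 3 of 18, 2 of 15 and 2 of 6 rose, 1 ATP synthase gene fell, and none of the 12 other complex I genes was called by edgeR or had an unadjusted p under 0.05.

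The starts of 4 genes with RNA changes are shown, each with a call that held whichever single library was left out: NDUFV3, which rose with both media, NDUFS3, which rose with WT media, NDUFB10, which fell with KO media, and NDUFA11, which fell in WT DMSO medium relative to T0. Each is the 250 bases before the annotated start of transcription in RefSeq, build GRCh38.p14, 5′ to 3′ on the strand of the gene. Capitals mark matches to 3 short motifs searched on both strands: GCGCANGC from the site of NRF1, a regulator of nuclear genes for mitochondria, CCGGAAG from the ETS family site to which GABP binds, and GGGCGG, the GC box of SP1. The annotation build of the RNA counts, hg19, is another one, so these coordinates belong to the RefSeq table alone.
NDUFV3, chr21:42893059-42893308, plus strand: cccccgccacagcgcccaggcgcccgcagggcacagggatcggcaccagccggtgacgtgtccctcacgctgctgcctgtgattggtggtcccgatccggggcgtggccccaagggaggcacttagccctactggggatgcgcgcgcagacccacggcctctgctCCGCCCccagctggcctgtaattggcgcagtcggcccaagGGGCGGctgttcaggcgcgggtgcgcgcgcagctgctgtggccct
NDUFS3, chr11:47578824-47579073, plus strand: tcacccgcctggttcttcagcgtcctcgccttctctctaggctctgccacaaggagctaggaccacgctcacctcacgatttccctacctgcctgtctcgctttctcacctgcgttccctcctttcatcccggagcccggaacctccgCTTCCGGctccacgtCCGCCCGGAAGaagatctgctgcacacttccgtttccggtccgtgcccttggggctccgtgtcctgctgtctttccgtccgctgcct
NDUFB10, chr16:1959288-1959537, plus strand: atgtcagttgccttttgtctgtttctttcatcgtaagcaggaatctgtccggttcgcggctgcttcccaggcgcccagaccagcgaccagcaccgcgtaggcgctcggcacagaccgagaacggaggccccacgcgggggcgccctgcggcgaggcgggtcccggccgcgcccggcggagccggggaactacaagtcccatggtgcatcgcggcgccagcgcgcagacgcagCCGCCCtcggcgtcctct
NDUFA11, chr19:5903791-5904040, minus strand: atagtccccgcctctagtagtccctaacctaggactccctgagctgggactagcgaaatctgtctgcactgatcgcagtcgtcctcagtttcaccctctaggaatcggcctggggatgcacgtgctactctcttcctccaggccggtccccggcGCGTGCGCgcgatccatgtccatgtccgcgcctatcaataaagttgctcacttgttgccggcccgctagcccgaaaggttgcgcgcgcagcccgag

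These windows differ in the matches they hold. NDUFS3 had 2 ETS matches and 1 GC box, with 1 ETS match overlapping the GC box, NDUFV3 had 2 GC boxes, NDUFB10 had 1 GC box, and NDUFA11 had 1 NRF1 match. Of the 48 tested symbols 40 were found in the promoter table, with 50 starts. The NRF1 motif lay in 26% of these 50 windows and in 10.4% of all 35116 windows, the ETS motif in 12% and 8.52%, and the GC box in 60% and 42.6%. A match is a description of letters in a window and was not linked to any change.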

How the data were processed

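The deposited screen and RNA tables hold raw counts per guide and per gene symbol, as read from their whole-number values; per the submitters' processing notes the screen was handled with Bowtie2 and DESeq2 and the RNA with DESeq2 on hg19. The sources used here give no versions, RNA aligner, strand setting or name of the guide library. The authors' deposited table holds DESeq2 log2 fold changes, p-values, a mean signal and score columns (SE, Wald statistic), per the file headers. The length in bases deposited with the counts was used for RPKM.

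Guide counts were summed per gene (at least 3 guides; non-targeting guides left out) and scaled by TMM. edgeR 4.0.16 (R 4.3.3) quasi-likelihood tests were fitted over all 18 screen libraries (12 residual degrees of freedom), and over all 10 RNA libraries (5) after filterByExpr. The SE is the fold change divided by the square root of F. The threshold was a Benjamini-Hochberg adjusted p of 0.05 over all features, and limma 3.58.1 and DESeq2 1.42.0 were alternatives. NDUF guides had 46 to 1136 counts in a library, which limits precision. Scripts were tested on simulated data. Replicates of 1 group were compared, and no pair differed by as little as sampling noise alone would give. Members and lists were chosen with earlier results of these data known. Named, apart from results not reported here, were called members, the 3 lowest p per comparison, the nuclear core subunits, NDUFA4, NDUFA4L2 and NDUFAB1. Counts cover every member, but some single-gene results are not reported here and are not drawn in the figures. The motifs, the promoters shown and the setting with KO etoposide C alone were chosen after values were seen. Labels call the 96 h control untreated, and the design text names DMSO.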

Additional observations from a re-analysis of the deposited data

How the results depend on the processing

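The alternatives were other size factors, the non-targeting scale, DESeq2, limma on the mean over guides, other filters, the compared libraries alone, a replicate block, and each library left out in turn. Of the gene values 837 kept their direction and side of the threshold, 180 lost a call, 23 gained one and 0 reversed. On the non-targeting scale the count was 6 for etoposide in WT cells, 10 for growth in KO cells, 13 for growth in WT cells, 5 at T0 between genotypes and 0 for KO etoposide against T0. Calls over all genes on that scale are given above for etoposide, growth and T0. With DESeq2 it was 2 for KO etoposide against T0 and 2 for the genotype difference in etoposide change. In the RNA it was 4 for KO media, 9 for WT media and 2 for the difference between media. Over all features DESeq2 called 122 higher and 206 lower for KO etoposide against T0. It called 2417 symbols higher and 2356 lower for KO media, and 1911 and 2415 for WT media. With limma the count of members was 0 for KO etoposide against T0. With KO etoposide C alone it was 4 for KO etoposide against DMSO and 0 against T0. With no filter on low counts in the RNA it was 5 between DMSO media, 0 between etoposide media and 3 for the difference between media. Of 22016 symbols then tested, 721 were called higher and 465 lower between DMSO media. Between etoposide media 1593 were higher and 978 lower, and for the difference 467 and 324. With only the compared libraries the count of members was 4 for KO media, beside 2217 symbols higher and 2068 lower. The cause of these shifts was not tested. Among all genes called for the genotype difference in etoposide change, 50% were higher by TMM and 21.1% on the non-targeting scale.

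With 1 library left out, counts ran from 9 to 14 (etoposide, KO), 1 to 3 (etoposide, WT), 1 to 2 (growth, KO), 1 to 4 (growth, WT), 0 to 2 (KO etoposide against T0), 2 to 3 (T0), 0 to 1 (genotype difference in etoposide change), 4 to 9 (KO media), 4 to 8 (WT media), 0 to 7 (DMSO media), 0 to 9 (difference between media), 6 to 9 (WT DMSO medium against T0) and 0 to 0 (etoposide media). Medians changed sign at T0 between genotypes (0.0181 on the non-targeting scale, 0.00481 without WT T0 C), for KO media (0.00747 without KO etoposide A) and for the genotype difference in growth (-0.0107 without WT DMSO C, -0.0019 without KO T0 C and -8.6e-05 without KO DMSO B). The labels do not say that a letter marks a shared culture or day. Same-letter libraries had correlations of deviations between -0.05 and 0.17, and in no comparison were all of them over 0.1; they were highest for growth in KO cells (0.1, 0.06 and 0.17 for A, B and C). The letters were therefore not used to pair libraries. With the replicate block the genotype difference in etoposide change had 1 call, NDUFB6 (adjusted p = 0.0479), and WT DMSO medium against T0 lost the call of NDUFS3 (adjusted p = 0.0531).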
